A study of Mus musculus with 2 samples.

Results

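The genes of the constitutive proteasome were examined in maps of open chromatin from a mouse mesothelioma line. They were taken as the coding genes of mm10 whose symbol is Psma, Psmb, Psmc or Psmd followed by digits, without Psmb8, Psmb9 and Psmb10 of the immunoproteasome. The rule found 36 genes among 21887 coding genes, on 16 chromosomes. It used names only, and no measured value. Of the 36 genes, 33 had a peak of open chromatin within 1 kb of an annotated gene end in both libraries, as did 52% of all coding genes, and 3 had one in neither.

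AB22 cells, a murine malignant mesothelioma line, carried a doxycycline-inducible hairpin from the lentiviral vector pTRIPZ. In the shCTRL cells the hairpin was a control, and in the shHMGB1 cells it was directed against Hmgb1, which encodes a DNA-bending protein of the nucleus. Both lines had been infected at a multiplicity of 20 and selected with 4 µg/mL puromycin, and both were used 7 to 10 days after 1 µM doxycycline was added, so the controls also carried vector, puromycin resistance and doxycycline. The labels give culture at 37 °C and 5% oxygen for both lines, and whether oxygen or carbon dioxide was meant is not known. They do not say whether either line was a clone or a pool, and they give no radiation dose for these samples. ATAC-seq, in which the transposase Tn5 inserts adapters into accessible DNA, was made from 1 library of each line. There were no replicates, so the differences below have no replicate check and carry no p-values. Every interval below covers counting error only. In a bulk library, a site open in fewer cells and a site less open in each cell cannot be told apart.

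The proteasome degrades proteins that carry ubiquitin chains. Its core is a barrel of stacked rings, in which the alpha subunits (Psma genes) form the gated outer rings and the beta subunits (Psmb genes) form the inner rings that hold the proteolytic sites. A regulatory cap binds the barrel: its base holds a ring of ATPases (Psmc genes) that unfold substrates and thread them inward, and its lid (most Psmd genes) removes ubiquitin. The subunits are needed in fixed proportions in nearly every cell, and their genes are known to be transcribed together, in part through the factor NRF1 (gene Nfe2l1), which binds antioxidant response elements when proteasome activity is low.

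The sequences just before the starts of a few of these genes are shown because the summits of open chromatin described below fell on or near them. Promoters were taken from RefSeq (GRCm38.p6), 250 bases before to 50 after each start, and 31 promoters of 29 of the 36 genes were matched. Psma8, Psmb1, Psmb2, Psmb7, Psmc3, Psmd3 and Psmd7 had no entry in the table. Only bases before the start are printed, 5′ to 3′ on the strand of the gene. In the first group, capitals mark TGACNNNGC, the core of the antioxidant response element, in the promoters of 2 catalytic subunits and of the chaperone gene with the lowest summit. The positions are chr14:54617996-54618145 (minus strand) for Psmb5, chr11:70525337-70525356 (plus strand) for Psmb6 and chr5:123228040-123228189 (plus strand) for Psmd9.
Psmb5: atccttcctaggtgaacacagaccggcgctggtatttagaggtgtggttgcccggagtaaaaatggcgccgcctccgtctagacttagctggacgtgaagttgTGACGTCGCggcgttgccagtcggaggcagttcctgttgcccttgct
Psmb6: actaaagagagTGACGGAGC
Psmd9: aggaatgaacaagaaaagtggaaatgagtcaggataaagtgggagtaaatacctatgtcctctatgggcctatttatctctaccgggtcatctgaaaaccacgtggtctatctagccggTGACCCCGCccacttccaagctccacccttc

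In the second group, capitals mark CCGGAA, the core of sites for ETS factors, on either strand. Overlapping matches on both strands are joined into a single run of capitals in Psmd4. These promoters lie at chr3:95042615-95042764 (minus strand) for Psmd4, chr14:14120946-14121095 (minus strand) for Psmd6 and chr12:55398675-55398824 (plus strand) for the start of Psma6 that lies inside the annotated gene. The stretch before Psma2, at chr13:14613092-14613241 (plus strand), has the site of nuclear respiratory factor 1 in capitals, the only match among the 31 promoters.
Psmd4: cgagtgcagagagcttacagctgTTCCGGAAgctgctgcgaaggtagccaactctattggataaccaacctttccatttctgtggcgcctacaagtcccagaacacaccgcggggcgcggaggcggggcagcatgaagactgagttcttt
Psmd6: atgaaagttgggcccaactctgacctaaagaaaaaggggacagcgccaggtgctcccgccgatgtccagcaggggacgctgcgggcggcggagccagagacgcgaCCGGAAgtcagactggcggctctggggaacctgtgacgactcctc
Psma6: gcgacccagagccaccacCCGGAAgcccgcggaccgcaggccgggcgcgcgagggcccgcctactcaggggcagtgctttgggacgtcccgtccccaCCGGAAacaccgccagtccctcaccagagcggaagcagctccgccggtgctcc
Psma2: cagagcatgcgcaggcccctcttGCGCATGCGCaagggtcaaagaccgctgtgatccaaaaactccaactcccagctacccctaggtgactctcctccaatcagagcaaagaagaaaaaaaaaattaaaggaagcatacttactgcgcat

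The level given for a gene is the pileup of its highest summit within 1 kb of either annotated end, the number of fragments that cover that single position. It does not grow with the length of the gene. The expected pileup per position was 2.79 fragments in shCTRL and 1.68 in shHMGB1, and the lowest summit listed had 10 and 7, so raw pileups of the libraries are on different scales. The sequencing depth of the libraries is unknown. The silenced gene itself, Hmgb1, had pileups of 75 and 83 in shCTRL and shHMGB1 (95% Poisson intervals 59.0 to 94.0 and 66.1 to 103), which checks no label, since a hairpin acts on RNA. As for the cell type, 2 of 12 mesothelial markers (Msln and Pdpn) and 8 of 10 mesenchymal markers had an end peak in both libraries. Of all coding genes, 52% did. Of the other mesothelial markers, 2 (Wt1, Calb2) had a peak only in shCTRL, 1 (Lrrn4) only in shHMGB1, and 7, among them Upk3b, Krt8 and Krt18, had none. The pileups of Msln (22 and 12) and Pdpn (16 and 13) were low too. Of 16 leukocyte, epithelial and endothelial markers, 2 had a peak in both libraries, 6 in shCTRL alone and 1 in shHMGB1 alone. Of all coding genes, 52%, 5.79% and 1.73% did. The pileups of these markers were 10 to 18 and 10 to 11, near the lowest that was listed.

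Proteasome genes were open in both lines more often than coding genes at large, and 0 of the 36 had a peak in only 1 line. A peak in both libraries was found at 33 of 36 genes, or 91.7% (exact Clopper-Pearson 95% interval 77.5 to 98.2), against 52% of all coding genes. A peak in shCTRL alone was found at 0 of the 36, beside 5.79% of coding genes, and a peak in shHMGB1 alone at 0, beside 1.73%. For a count of 0 of 36 the interval reaches 9.74%, so shares as low as those of all coding genes were not detectable with 36 genes. The 3 genes with a peak in neither library, where 40.5% of coding genes fall, were Psma6, Psma8 and Psmb11. Psma8 encodes an alpha subunit of the testis and Psmb11 a beta subunit of the thymic cortex.

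Psma6 is a constitutive alpha subunit gene, and its open site lay inside the annotated gene. The annotated gene spans 55384222 to 55418459 on chromosome 12, and RefSeq also gives a start at 55398825. Within 1 kb of that inner start the pileup was 63 fragments (48.4 to 80.6) in shCTRL and 80 (63.4 to 99.6) in shHMGB1, with summits at -23 and -16 bp from the start (negative values lie before it). Psma3 was similar: the highest summit near its annotated ends (chromosome 12, 70969283 to 70995877) had 22 fragments in each library, whereas at the start at 70974623 the pileup was 53 (39.7 to 69.3) in shCTRL and 58 (44.0 to 75.0) in shHMGB1. Both genes were looked up at RefSeq starts after their values at the annotated ends had been seen. With such starts taken into account, 34 of the 36 genes were open in both lines, that is, every gene but the testis and thymus subunits. Psma8 and Psmb11 had no peak anywhere in the gene with 1 kb on either side, as in 28.7% of coding genes. At starts alone, 28 of the 29 genes in the promoter table had a peak in both libraries, against 53.1% of 17492 coding genes.

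Among coding genes open in both lines, those of the proteasome sat near the middle of the distribution. The median pileup of the 33 genes was 48 fragments in shCTRL (quartiles 35 and 64, range 13 to 95) and 50 in shHMGB1 (27 and 64, range 7 to 88). All coding genes open in both lines had medians of 43 (quartiles 26 and 70) and 37 (21 and 65). The proteasome genes thus stood at 1.12 times the median coding gene in shCTRL and 1.35 times in shHMGB1, and 21 and 22 of the 33 lay above it. In units of the expected pileup of each library the medians were 17.2 and 29.7, against 15.4 and 22.0 for coding genes. The order of the genes was much the same in both libraries (Spearman's rho 0.93 over the 33 genes, 0.95 over coding genes open in both). These are correlations across genes at the same sites, and genes are not independent replicates.

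In shCTRL the 3 highest summits of the set were those of alpha ring genes. Psma7 (NCBI gene 26444, chromosome 2, 180036367 to 180042464) had the highest pileup of all 33 genes in shCTRL, 95 fragments (76.9 to 116), and 84 (67.0 to 104) in shHMGB1. Psma5 had 93 (75.1 to 114) in shCTRL and 65 (50.2 to 82.8) in shHMGB1. In Psma2 the pileup was 92 (74.2 to 113) and 65 (50.2 to 82.8). These 3 genes stood above the median coding gene in both libraries. Psma4, with 45 fragments in each library, lay close to it, and Psma1, with 32 and 25, below it. The median of the 6 alpha genes with an end peak was 68.5 in shCTRL and 55 in shHMGB1. It takes Psma3 at its annotated ends, where its summit was low, and leaves out Psma6. Raw pileups of the libraries are on different scales, so the libraries are compared by ratio below.

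In the beta ring the genes of the proteolytic subunits had the lowest summits. Psmb5 (chromosome 14, 54614120 to 54617995), which encodes the chymotrypsin-like subunit, had 19 fragments (11.4 to 29.7) in shCTRL and 17 (9.90 to 27.2) in shHMGB1. Psmb6 (chromosome 11, 70525324 to 70527858), the caspase-like subunit, had 28 (18.6 to 40.5) and 27 (17.8 to 39.3). At Psmb7 (chromosome 2, 38588046 to 38643952), the trypsin-like subunit, it was 13 (6.92 to 22.2) and 12 (6.20 to 21.0). The 3 were the lowest of the 7 beta genes in both libraries, and all 3 lay below the median coding gene. Psmb2 was the highest beta gene in shCTRL, with 65 (50.2 to 82.8) and 75 (59.0 to 94.0) in shHMGB1, and Psmb1 the highest in shHMGB1, with 57 (43.2 to 73.9) and 77 (60.8 to 96.2). The structural subunits Psmb3, with 50 and 55, and Psmb4, with 35 and 34, lay between. In each library, the intervals of Psmb5 and Psmb7 did not overlap those of Psmb1, Psmb2 and Psmb3. The interval of Psmb4 (24.4 to 48.7 in shCTRL and 23.5 to 47.5 in shHMGB1) overlapped those of Psmb5 and Psmb6 in both libraries. That of Psmb6 also overlapped that of Psmb3 in shCTRL. Psmb7 has no entry in the promoter table, so it was not looked up at a RefSeq start.

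Of the 6 ATPase genes of the base, Psmc4 had the highest summit in shCTRL and Psmc6 in shHMGB1. The pileup at Psmc4 was 82 fragments (65.2 to 102) in shCTRL and 61 (46.7 to 78.4) in shHMGB1, and that at Psmc6 was 55 (41.4 to 71.6) and 66 (51.0 to 84.0). Psmc5 was the lowest in both, with 20 (12.2 to 30.9) and 24 (15.4 to 35.7). Psmc1 (40 and 42), Psmc2 (45 and 39) and Psmc3 (40 and 49) lay within a narrow band near the median coding gene. The other base subunits include docking sites for ubiquitin chains. Psmd2 had the highest summit of these in shCTRL, 56 (42.3 to 72.7), with 51 (38.0 to 67.1) in shHMGB1, and Psmd4, a ubiquitin receptor, had 52 (38.8 to 68.2) and 56 (42.3 to 72.7). Psmd1, the large scaffold of the base, had 36 (25.2 to 49.8) and 22 (13.8 to 33.3).

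Each of the 8 lid genes had 45 fragments or more in shCTRL. Psmd14, which encodes the enzyme that cuts ubiquitin from the substrate, was the highest at 88 fragments (70.6 to 108) in each library, and it was the highest of all 33 genes in shHMGB1. Its partner Psmd7 had 49 and 50. The scaffold genes Psmd3 (48 and 39), Psmd6 (57 and 65), Psmd8 (69 and 64), Psmd11 (47 and 56), Psmd12 (45 and 36) and Psmd13 (64 and 55) lay between 36 and 69 in both libraries. Psmd5, Psmd9 and Psmd10 encode chaperones that help to build the base and leave the finished particle. Psmd10, also known as gankyrin, had 65 (50.2 to 82.8) in shCTRL and 57 (43.2 to 73.9) in shHMGB1, and Psmd5 had 35 (24.4 to 48.7) and 23 (14.6 to 34.5). Psmd9 (chromosome 5, 123228190 to 123250126) was weak in both, with 16 (9.15 to 26.0) and 7 (2.81 to 14.4), the lowest pileup listed in shHMGB1.

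**Figure D1:**
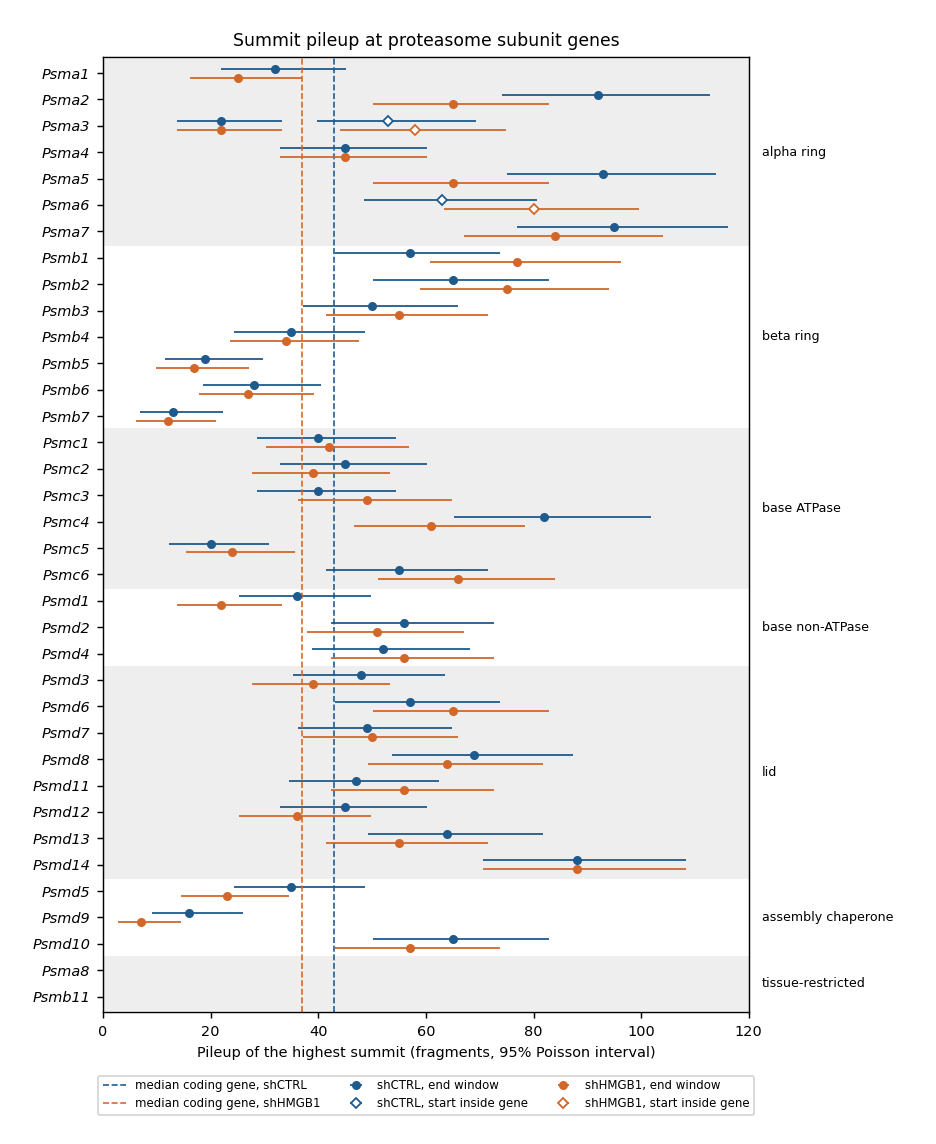
Pileup of the highest summit (x axis, fragments) at each proteasome gene, grouped by place in the particle, in shCTRL (blue) and shHMGB1 (orange); filled circles are summits within 1 kb of an annotated gene end, open diamonds those at a start inside Psma3 and Psma6, bars the 95% Poisson intervals, and dashed lines the median coding gene (43 and 37). Psmb5, Psmb6 and Psmb7 lie left of both lines, Psma2, Psma5, Psma7 and Psmd14 far to the right, and Psma8 and Psmb11 have no point.

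Next, summits of the 2 libraries were matched within 150 bp, and their ratio was taken relative to the median over the 11134 coding genes that had such a pair, whose raw log2 ratio was -0.21. All 33 open proteasome genes had a matched pair. Their log2 ratios of shHMGB1 over shCTRL had a median of 0.12 and quartiles of -0.12 and 0.31, beside 0 with quartiles of -0.26 and 0.23 for coding genes. They were above 0 in 21 genes, below 0 in 11 and equal to the median in Psmc2, that is, above 0 in 63.6% against 49.9% of coding genes. Relative to the median of coding genes of similar height the median of the 33 was 0.15, and relative to genes of the same chromosome it was 0.09. Relative to the expected pileup of each library it was 0.65, since that scale moves all genes: the expected pileup was 0.603 times as high in shHMGB1.

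A ratio was called where it passed 1.5-fold in either direction, and 31 of the 33 genes stayed inside. Psmb1 (NCBI gene 19170, chromosome 17, 15475721 to 15498276) alone was higher in shHMGB1, beside 4.09% of coding genes. With 57 fragments in shCTRL and 77 in shHMGB1, its log2 ratio was 0.64 (95% interval 0.13 to 1.16). Relative to genes of similar height it was 0.54 (0.03 to 1.06), short of the fold. Psmd9 alone was lower, beside 8.52% of coding genes: its 16 and 7 fragments gave a log2 ratio of -0.99, with an interval from -2.51 to 0.38 that includes no difference. Psmb1 was also the only gene whose interval lay above the median gene, as 5.98% of coding genes did, and none of the 33 had an interval below it, against 2.17%. These shares are close to those of coding genes.

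By place in the particle, the median log2 ratio was -0.06 for 6 alpha genes, 0.16 for 7 beta genes and 0.37 for 6 ATPase genes. It was 0.07 for the 3 other base genes, 0.15 for 8 lid genes and -0.40 for 3 chaperone genes. The alpha value comes from annotated ends: it takes Psma3 at 0.21, away from its inner start, and leaves out Psma6. Among the ATPases, 4 genes lay above the median coding gene: Psmc3 at 0.50 (-0.13 to 1.14), Psmc5 at 0.47 (-0.45 to 1.40), Psmc6 at 0.47 (-0.07 to 1.01) and Psmc1 at 0.28. Psmc4 was at -0.22 (-0.72 to 0.28). In the alpha ring, Psma5 was at -0.31 (-0.79 to 0.16) and Psma2 at -0.29 (-0.78 to 0.18), and at the inner starts Psma6 was at 0.55 (0.05 to 1.05) and Psma3 at 0.33 (-0.23 to 0.90). Psmd14, of equal raw pileup in both, was at 0.21 (-0.24 to 0.65), Psmd1 at -0.50 (-1.34 to 0.30) and Psmd5 at -0.40 (-1.23 to 0.40). The catalytic genes were at 0.12 (-0.92 to 1.16) for Psmb5, 0.15 (-0.66 to 0.97) for Psmb6 and -0.17 (-1.52 to 1.13) for Psmb7. Each of these intervals except that of Psma6 includes the median coding gene. The counts limit what can be seen: for only 3 of the 33 genes did the interval lie wholly inside 1.5-fold.

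**Figure D2:**
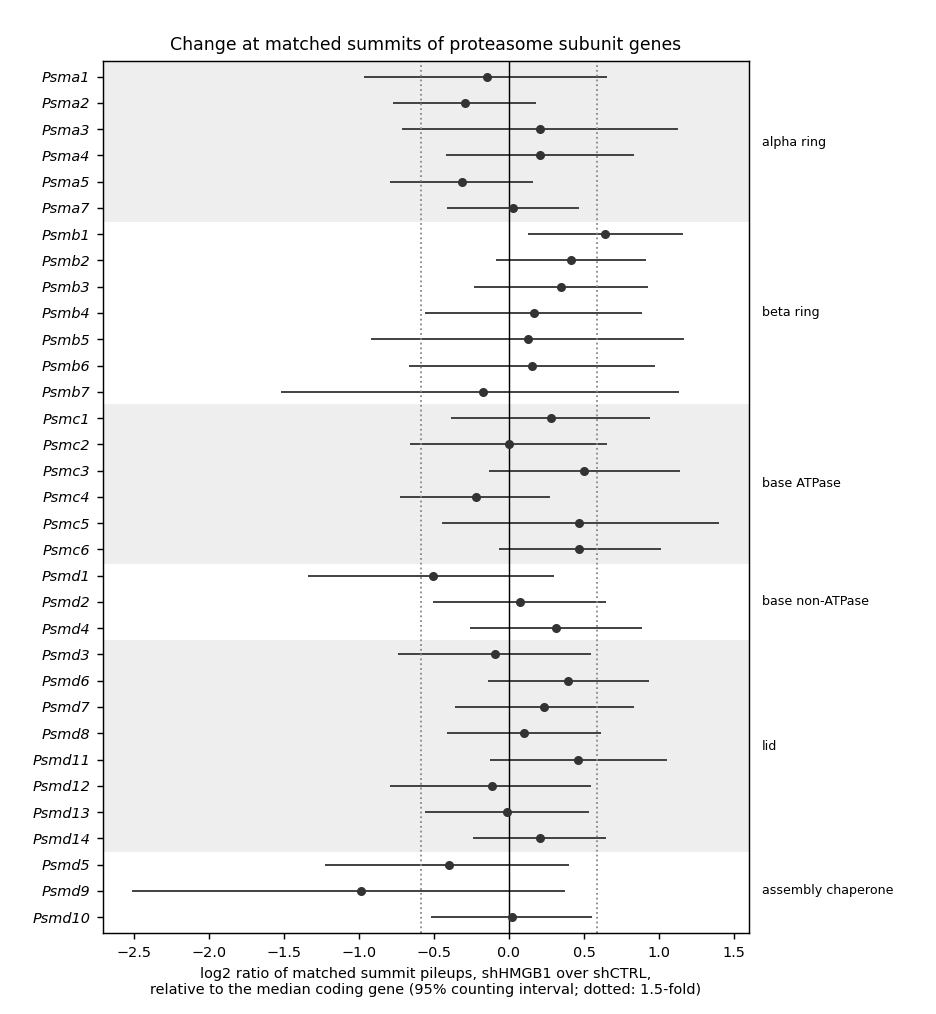
Log2 ratio of matched summit pileups, shHMGB1 over shCTRL (x axis), relative to the median coding gene, for the 33 proteasome genes with a matched pair; bars are 95% counting intervals, the solid line is the median coding gene and dotted lines mark 1.5-fold. Most points lie between -0.50 and 0.50, Psmb1 lies past the right dotted line at 0.64 and Psmd9 past the left one at -0.99 with the widest bar.

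Several proteasome genes share their open site with a neighbour or lie where the lists differ. In 8 of 33 genes (24.2%, against 26.0% of matched coding genes) the summit also lay within 1 kb of an end of another coding gene, so its fragments cannot be assigned to one of them. These pairs were Psma2 with Mrpl32, Psma4 with AY074887 and Hykk, Psma7 with Ss18l1, Psmb3 with Pcgf2, Psmc2 with Dnajc2, Psmc5 with Ftsj3, Psmd8 with Catsperg1 and Psmd13 with Sirt3. The shared summits had median pileups of 57 and 55 and a median log2 ratio of 0.06, and the 25 others 47 and 49 and 0.15. Within 500 kb of Psma7 the lists held 700 peaks in shCTRL and 300 in shHMGB1, the most uneven surroundings of the 36 genes, while its own ratio was 0.03. Around Psmd3 (125 and 84 peaks), Psmb3 (130 and 90) and Psmd2 (136 and 96) shCTRL also listed more, and around Psmc6 (24 and 36) shHMGB1 listed more. The part of these surroundings in the ratios and in the pileups was not tested.

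The summits sat close to the starts, in the same place in both lines. For the 28 genes with a start in the promoter table and a peak there, the median position of the highest summit was -24 bp from the start in shCTRL and -32.5 bp in shHMGB1, where negative values lie before the start. Without regard to side the median distance was 46 and 42 bp, against 88 and 83 bp for coding genes. On the same scale the marked matches printed above begin at -47 bp in Psmb5, -31 bp in Psmd9 and -45 bp in Psmd6. The summit was within 150 bp of the start in 25 of 28 genes in shCTRL and 27 of 28 in shHMGB1 (89.3% and 96.4%), against 66.1% and 68.0% of coding genes. It lay before the start in 21 and 20 of the 28 (75% and 71.4%, against 66.9% and 71.1%). Psma5, Psmd1, Psmd12 and Psmd14 had it farthest after the start in both libraries. Matched summits of the 33 genes were a median of 11 bp apart between the libraries (14 bp for coding genes) and at most 132 bp, in Psmb7. In Psmb5 the highest summit lay at -233 bp in shCTRL, with 19 fragments, and at -38 bp in shHMGB1, within 5 bp of the centre of the marked TGACNNNGC match. The shCTRL library also had a summit of 18 fragments just after the start, 64 bp from that of shHMGB1, so the place of its highest summit rests on a difference of 1 fragment.

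**Figure D3:**
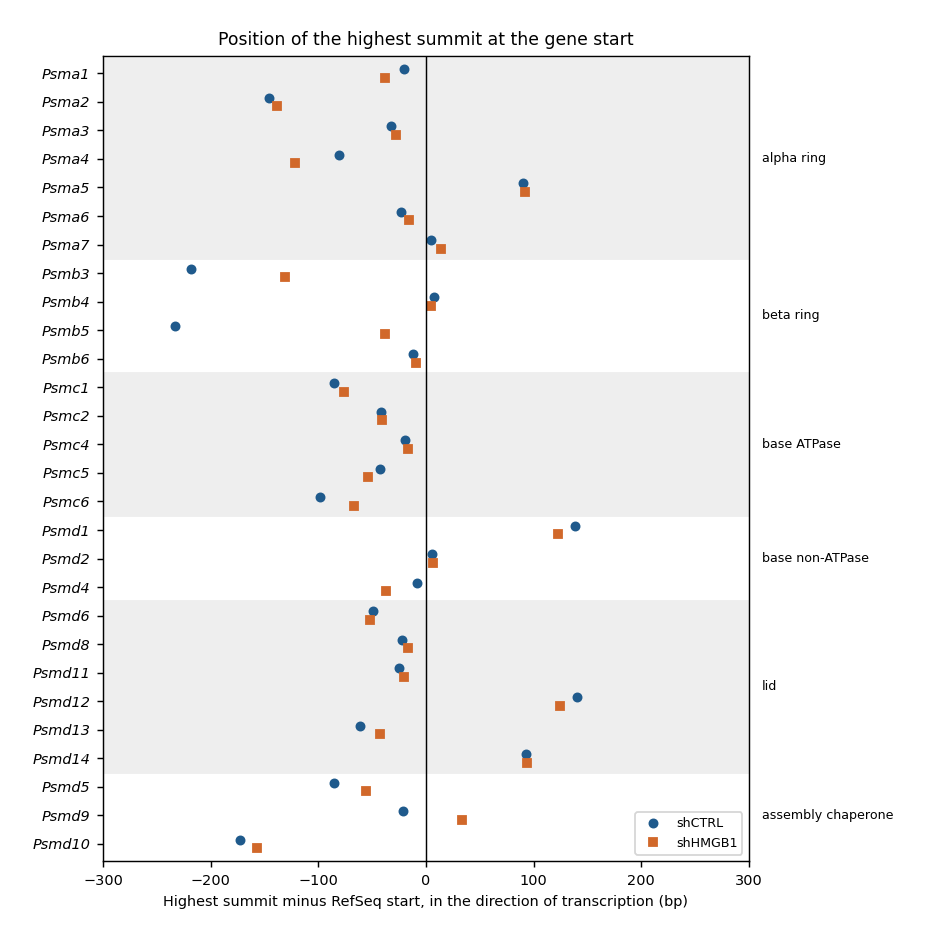
Position of the highest summit relative to the RefSeq start (x axis, bp, negative before the start in the direction of transcription) for the 28 proteasome genes with a start in the promoter table and a peak there, in shCTRL (blue circles) and shHMGB1 (orange squares). Points of a gene lie close together in most rows, at medians of -24 and -32.5 bp, and Psmb5 has its shCTRL point at -233 bp.

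Of the motifs searched on both strands of the 31 promoters, CCGGAA set the proteasome promoters farthest from coding promoters. It was in 16 of 31 promoters (51.6%), of 15 genes, against 18.7% of 21263 coding promoters and 30.0% of the 11052 with a peak in both libraries. The genes were Psma2, Psma5 and Psma6 of the alpha ring, Psmb4, the ATPases Psmc1, Psmc2, Psmc5 and Psmc6, and Psmd2, Psmd4, Psmd6, Psmd10, Psmd11, Psmd12 and Psmd13. Its centre lay a median of 38.5 bp from the highest start summit in each library, against 74.5 and 68.5 bp in coding genes with the motif. In 9 of the 15 genes in shCTRL and 10 in shHMGB1 the distance was 50 bp or less (39.2% and 41.0% of coding genes). In Psmd6 the marked match was 6.5 bp from the summit in shCTRL and 9.5 bp in shHMGB1, and in Psmd4 the nearer of the marked matches was 114.5 and 85.5 bp away. In Psma6 the nearest match, which spans the start and is not marked above, was 23.5 and 16.5 bp away. Genes with CCGGAA had median start pileups of 55 and 56 fragments and those without it 45 and 45. Summits of proteasome genes lay closer to starts in general, and the part of this in the distances was not tested.

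The other motifs were about as frequent as in coding promoters. TGACNNNGC was in 5 promoters (16.1%, against 13.0% of all and 14.5% of open coding promoters), of Psmb5, Psmb6, Psmc6, Psmd9 and Psmd12. The match in Psmb6 covers the last bases before the start and lay 7 bp from the summit in shCTRL and 4 bp in shHMGB1, and in Psmd9 the distances were 6 and 61 bp. Genes with this motif had median start pileups of 28 and 27 fragments, and the 23 without it 53 and 56. The group is small, with 5 genes, and Psmb5, Psmb6 and Psmd9 were the low ones in it. CCAAT was in 38.7% (38.2% of all and 38.4% of open coding promoters) and GGGCGG, the GC box of Sp1, in 58.1% (46.2% and 66.8%). The site of nuclear respiratory factor 1, a palindrome of 10 bases, was in the promoter of Psma2 alone (3.23%, against 1.33% and 2.26%). TGACGTCA, the cAMP response element, was in 0 of 31, against 2.23% and 3.37%. Both of these sites read the same on either strand, and a match of one motif may overlap a match of another. The median GC content was 56.7% in proteasome promoters, 56.3% in all and 61.7% in open coding promoters. A match describes letters in a window and does not show that a factor binds there.

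**Figure D4:**
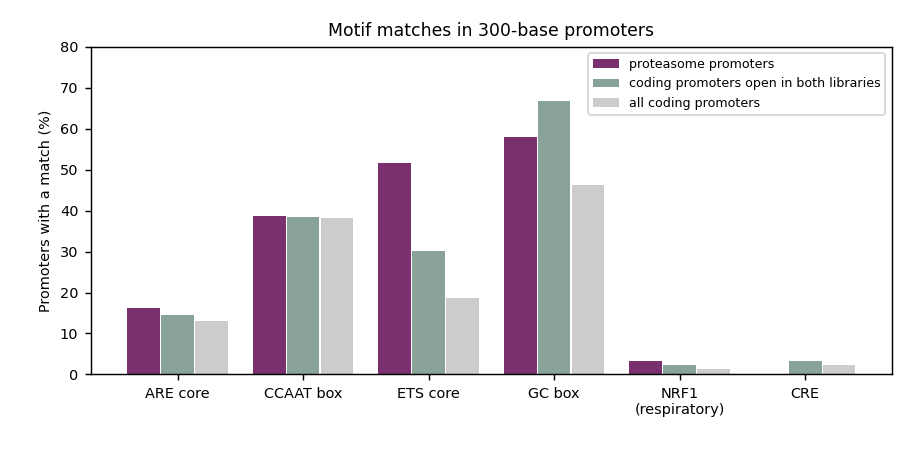
Share of promoters (y axis, percent, from 0) with at least 1 match to each of 6 motifs in the 300 bases of the RefSeq promoter, for 31 proteasome promoters (purple), 11052 coding promoters with a peak in both libraries (green) and all 21263 coding promoters (grey). The ETS core stands at 51.6%, 30.0% and 18.7%, the antioxidant response element (ARE) core at 16.1%, 14.5% and 13.0%, and the cAMP response element (CRE) has no proteasome bar.

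Nucleosome-free regions, the stretches between flanking nucleosomes that the depositors listed for each library, were also frequent at these genes. A region within 1 kb of a gene end was listed in both libraries at 18 of the 36 genes (50%, against 18.7% of coding genes), in shCTRL alone at 4 (11.1%, against 9.54%), in shHMGB1 alone at 3 (8.33%, against 6.71%) and in neither at 11 (30.6%, against 65.1%). Among genes with an end peak in both libraries, 54.5% of the proteasome genes and 35.9% of coding genes had a region in both. With only regions whose occupancy was below the median of their library, 4 proteasome genes had one in both libraries, and 7.97% of coding genes did. The 11 without a region include 8 genes open in both lines: Psma4, Psmb3, Psmb6, Psmd2, Psmd3, Psmd7, Psmd8 and Psmd9. Their pileups, 16 to 69 in shCTRL and 7 to 64 in shHMGB1, overlap those of the genes with regions. The inner start of Psma6 had one in both, of 170 bp with 203 insertions in shCTRL and of 229 bp with 325 in shHMGB1.

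The regions themselves were alike in median length and median insertions in both lines. There were 28 in shCTRL and 25 in shHMGB1 at these genes, with median lengths of 155.5 and 147 bp (161 and 162 bp at all coding gene ends) and a range of 25 to 517 and 40 to 515 bp. Their median occupancy, read as the estimated fraction of molecules that hold a nucleosome there, was 0.061 and 0.050, against 0.059 and 0.054 at coding gene ends. The highest occupancy of a region at these genes was 0.097, in Psma2 in shHMGB1. Whether regions were listed only below a limit of occupancy is not known, so no likeness is read from these medians. Median insertions per bp were 1.08 and 1.07, against 1.07 and 1.01. Of the 18 genes with a region in both, the summed length was longer in shHMGB1 in 8 and shorter in 10, and the regions overlapped in 17, all but Psmc5. At Psmd4, for example, a region of 222 bp with 247 insertions in shCTRL met one of 223 bp with 313 in shHMGB1 over the start. Wide contrasts were seen at Psma5, 326 bp in shCTRL and 42 bp in shHMGB1, and at Psmd12, 126 and 515 bp.

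At 7 genes a region was listed in 1 library only, while the peak was there in both. In shCTRL alone these were Psmc4 (152 bp with 211 insertions), Psmc2 (200 bp with 183), Psmb7 (182 bp with 53) and Psma3 (212 bp with 99, more than 5 kb before its inner start). Psmc2 also has a second RefSeq start, where both libraries listed a region, of 189 bp with 168 insertions and 218 bp with 136. In shHMGB1 alone they were Psma2 (309 bp with 321 insertions), Psmd5 (232 bp with 133) and Psmb5 (180 bp with 89, over the marked TGACNNNGC match). The summits of these genes went either way. Those with a region in shHMGB1 alone had log2 pileup ratios of -0.29 (Psma2), -0.40 (Psmd5) and 0.12 (Psmb5). Those with a region in shCTRL alone had -0.22 (Psmc4), -0.17 (Psmb7), 0.00 (Psmc2) and 0.21 (Psma3).

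**Figure D5:**
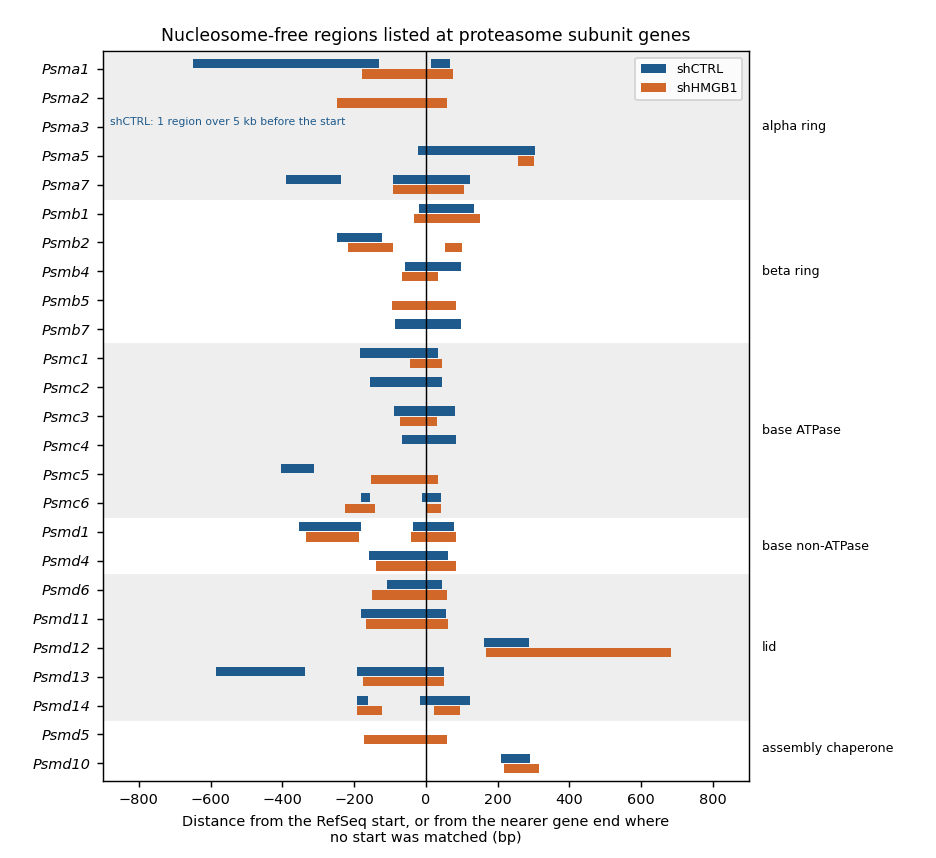
Nucleosome-free regions of shCTRL (blue) and shHMGB1 (orange) at the 25 proteasome genes with at least 1, drawn by distance (x axis, bp) from the RefSeq start in the direction of transcription, or, for Psmb1, Psmb2, Psmb7 and Psmc3, from the nearer gene end in the direction of rising coordinates. Most bars cover or flank 0 in both colours; Psma2, Psmb5 and Psmd5 have orange bars only, and Psmb7, Psmc2 and Psmc4 blue bars only.

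Other genes of the pathway followed the same pattern. Of 35 genes named, 34 were found in the gene table and Paaf1 was not. An end peak in both libraries was found at 31 of the 34, against 52% of all coding genes. Psmf1, a proteasome inhibitor, Ecpas, an adaptor of the particle, and Nfyc had one in neither, beside 40.5% of coding genes. None had one in only 1 library, beside 5.79% of coding genes for shCTRL alone and 1.73% for shHMGB1 alone. As for the 36 genes, a count of 0 cannot be told from such shares. Only annotated ends were searched here, so an open start inside one of these genes, as in Psma6, would be missed. Whether a summit of these genes also lay near an end of another coding gene was not checked, so its fragments may not be theirs alone. The median pileup of the pathway genes was 45 fragments in each library and the median log2 ratio of 30 matched pairs was 0.11. Summits were highest at Uchl5, a deubiquitinase of the cap (198 and 165), and Nfya, a subunit of the factor that binds CCAAT (187 and 198). Adrm1, a ubiquitin receptor (155 and 134), came next. All of these lay above every subunit gene of the constitutive particle. Adrm1 lies within 500 kb of Psma7, where shCTRL listed 700 peaks and shHMGB1 300. The part of this in its pileup was not tested. The interval of the ratio lay above the median gene in 2 of the 30, beside 5.98% of coding genes: Psme2, a subunit of an activator induced by interferon (72 and 90, log2 ratio 0.53, 0.07 to 1.00), and Nfe2l2, a factor that binds antioxidant response elements (82 and 97, 0.45, 0.01 to 0.89). Relative to genes of similar height, both intervals include no difference (Psme2 0.39, -0.07 to 0.86, and Nfe2l2 0.32, -0.12 to 0.76).

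The immunoproteasome subunits, which replace the 3 catalytic ones after exposure to interferon, were open as well. Psmb8, which takes the place of Psmb5, had 33 fragments in shCTRL and 41 in shHMGB1, with a log2 ratio of 0.52 (-0.18 to 1.23). Psmb9, the counterpart of Psmb6, had 44 and 40, with a ratio of 0.07 (-0.59 to 0.72). Psmb10, the counterpart of Psmb7, had 14 and 9, near the lowest listed, at summits too far apart to be matched. In each library the summits near the ends of Psmb8 and Psmb9 had higher pileups than those of the genes they replace. Whether these summits also lie near an end of another coding gene was not checked. Only in shHMGB1 did the intervals of Psmb8 (29.4 to 55.6) and Psmb5 (9.90 to 27.2) not overlap. In shCTRL they did, and those of Psmb9 and Psmb6 overlapped in both libraries. Nfe2l1, the regulator named above, had 45 and 54, with a ratio of 0.47 (-0.13 to 1.07).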

How the data were processed

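ATAC-seq of 1 shCTRL and 1 shHMGB1 library of AB22 cells was used, grouped by the silencing label. Per the submitters' processing notes, reads were handled with Trimmomatic 0.32, BWA 0.7.5-r404, SAMtools, bedtools and MACS2 on mm10 (GRCm38). Their settings, the filters on reads, whether cut sites were shifted, and the program that called nucleosome-free regions are not given in the sources used here.

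Peaks were listed per library, 104336 in shCTRL and 92282 in shHMGB1. The deposited score of a summit is its −log10 q on a coarser scale. The deposited fold is a ratio of observed to expected pileup. The deposited −log10 p and its −log10 q compare each summit with that expectation within its library. In the lists of 16275 and 14634 nucleosome-free regions, 2 deposited columns were read as fractions and 2 deposited columns as signal (insertions and sequence bias). This reading came from their layout and ranges. The first fraction was read as occupancy. The second was below it in some regions (0.021 against 0.068 at Psma5 in shCTRL), so its meaning is unknown and it is not reported.

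Pileups were recovered from the deposited fold with a single expected pileup per library. All 180632 and 156812 summits gave whole numbers within 0.001, and the Poisson −log10 p matched the deposited one within 0.000127 at the 179830 and 155641 summits compared, those under 200. The expectation is the same along the genome, so no local correction was made.

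A gene had a peak where a summit lay within 1 kb of either end in the RefSeq gene table (GRCm38.p6). Among all pairs of summits within 150 bp the one with the greatest summed height was used. Pileups have exact Poisson, shares exact Clopper-Pearson and ratios conditional binomial 95% intervals, all for counting error only, because each line has 1 library. PCR copies were not marked by molecular identifiers, so the intervals of pileups and ratios may be too narrow. No test was made. Starts, strands and promoters came from the RefSeq promoter table. Python 3.11.15, numpy 2.4.6, pandas 2.3.3 and scipy 1.17.1 were used, and the scripts were tested on simulated data.

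The genes, gene lists, motifs and rules were chosen with earlier results of these data known. In full are given the highest gene of each group in each library, catalytic genes, genes with a peak in 1 or no library, past 1.5-fold, with an interval off the median gene or with a nucleosome-free region in 1 library. Of other pathway genes, the highest and those in 1 or no library are named, 1 result is not reported here, and Psme2, Nfe2l2, Psmb8, Psmb9, Psmb10 and Nfe2l1 were named after their values were seen. Alternatives changed windows, q thresholds, matching distance, scaling, minimum pileup and region filters. The RNA-seq and the maps of DNA breaks of the same study were not used here.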

Additional observations from a re-analysis of the deposited data

How the results depend on the processing

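No paired analysis was possible because each line has 1 library, and for the same reason no library could be left out. The number of proteasome genes open in both lines stayed between 29 and 34 in the settings run. The share of all coding genes ran from 40.4% to 64.7% in the planned settings. With windows of 500 bp 1 gene, Psmd2, had a peak in shCTRL alone, beside 5.32% of coding genes. With a −log10 q of at least 5 it was 1 gene in shCTRL alone (Psmd9) and 1 in shHMGB1 alone (Psmb7), beside 3.02% and 1.58% of coding genes. With at least 10 it was 1 in shHMGB1 alone (Psmc5) and 6 in neither, beside 1.59% and 54.9%. Relative to the expected pileup the median log2 ratio was 0.65, with 19 genes past 1.5-fold upward (43.2% of coding genes) and 0 downward (0.72%). Psmb1 was then at 1.16. With a combined pileup of at least 60, which keeps 24 genes, 0 passed the fold upward (Psmb1 at 0.57) and 0 downward. Of coding genes, 2.37% and 4.56% did. At the end that is the gene start (27 genes) and at RefSeq starts (28 genes), where Psmb1 has no entry, 0 passed upward. Of coding genes, 3.68% and 3.84% did. Relative to genes of similar height, Psmc5 was called in place of Psmb1, beside 5.11% of coding genes. Keeping only nucleosome-free regions with an occupancy below the median of their library left 4 genes with a region in both (7.97% of coding genes), 7 in shCTRL alone (8.84%) and 9 in shHMGB1 alone (7.02%). The other 67 planned and 11 added values stayed within 1.5 times the reported count or within the interval of the reported value. The RefSeq starts were added after the data were seen. Depth limits single genes: at Psmd9, Psmb7 and Psmb5 pileups are near the lowest listed, and a ratio of 1.5 could not be told from none.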
